A study of Arabidopsis thaliana with 20 samples.

Results

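AT1G58025 and AT3G23060 are 2 genes of Arabidopsis thaliana whose array signals were high in the ckh2 mutant at every level of the cytokinin kinetin. They were chosen for exactly that, among the 13350 genes that the array's probe-to-gene table pairs alone with a probe set, and each has 1 probe set of the 22810 on the array. High signals in ckh2 are therefore given below as a description, with no test. The tests concern kinetin within each genotype, the ckh1 mutant and TSA, comparisons other than ckh2 against another genotype. They share arrays with the choice, so they are not independent of it. Kinetin within ckh2 compares only groups whose high signals chose the genes. The kinetin response in ckh2 minus that in wild type was also tested, although it is a difference between values that chose the genes.

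Gene expression was measured on 20 Affymetrix arrays in 10 groups of 2, all from hypocotyl segments of 10-day-old dim-light seedlings kept for 3 days on callus induction medium. All groups received the auxin 2,4-D at 100 ng/ml. The ckh2-1 mutant, the ckh1-1 mutant and the wild type (Ler) each had kinetin at 0, 25 or 200 ng/ml, and the remaining group was wild type on TSA (trichostatin A) at 100 ng/ml, without kinetin. Each mutant is represented by 1 allele, and nothing in the labels says that the 2 arrays of a group came from separate cultures, so p-values measure the spread between these arrays, which may be technical.

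The reference gene table gives CKH2 as a synonym of PICKLE, a chromatin remodeller of the CHD3 class, and CKH1 as a synonym of TAF12B, a factor associated with the TATA-binding protein. PICKLE is known for keeping embryo and seed genes low after germination. TAF12 proteins belong to the general machinery that starts transcription at promoters. TSA inhibits histone deacetylases, the enzymes that take acetyl groups off histones, and so also acts at chromatin. Cytokinin and auxin together drive callus formation from hypocotyl segments.

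Both genes are protein-coding in the RefSeq table of the TAIR10.1 assembly, which gives neither a name beyond its locus tag, so no function is stated for them here. AT1G58025 lies on chromosome 1 from 21457667 to 21462243, with 6 annotated transcripts. AT3G23060 lies on chromosome 3 from 8200636 to 8203335, with 2 annotated transcripts. Since CKH2 (PKL) has the locus tag AT2G25170, neither gene shares a chromosome with it.

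Signals are MAS5 values, the Affymetrix summary of a probe set on a linear scale, as the authors deposited them. The authors' scaling differed between replicate numbers, with a trimmed mean of 310.9 in all replicate 1 arrays and 236.9 in all replicate 2 arrays, so fold changes within each replicate number are given beside the pooled ones. Differences are on the scale of log2(signal + 27.39), which understates the change of dim genes. Over all tested probe sets, the log2 values of the 2 arrays of a group had Pearson correlations between 0.958 and 0.987. The small number of arrays limits the precision.

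AT1G58025 was high in ckh2 and close to level across kinetin doses there. Its signals in ckh2 were 1094 and 1077 without kinetin, 913 and 1054 at 25 ng/ml, and 1132 and 951 at 200 ng/ml. In the wild type they were 151 and 56.7 without kinetin, 153 and 75.1 at 25 ng/ml, and 45.7 and 94.4 at 200 ng/ml. All 6 ckh2 arrays thus lay above all 6 wild type arrays of the kinetin series. The ckh2 mean was 1037 ± 85.9 and the wild type mean 95.9 ± 46.4 (SD, n = 6 each, over 3 kinetin levels), a ratio of 10.8.

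AT3G23060 was also high in ckh2, but its ckh2 signal was higher at each higher dose of kinetin. It had signals of 287 and 259 in ckh2 without kinetin, 525 and 331 at 25 ng/ml, and 698 and 577 at 200 ng/ml. In the wild type it had 28.2 and 31.3 without kinetin, 31.0 and 39.2 at 25 ng/ml, and 47.6 and 31.0 at 200 ng/ml. The ckh2 arrays of the 3 levels did not overlap with one another, while the wild type arrays stayed within a narrow low range. The ckh2 mean was 446 ± 179 and the wild type mean 34.7 ± 7.33 (SD, n = 6 each), a ratio of 12.8.

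**Figure D1:**
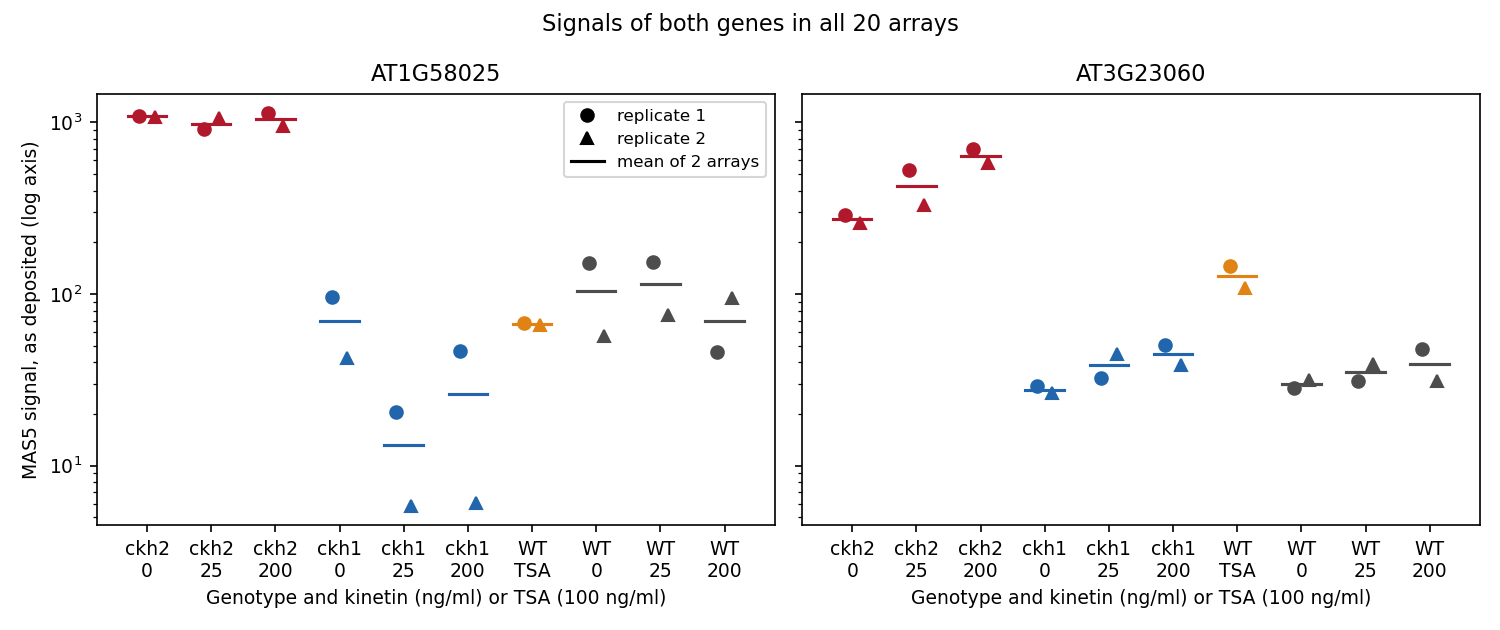
MAS5 signals (log axis) of AT1G58025 on the left and AT3G23060 on the right in all 20 arrays, by genotype and kinetin dose in ng/ml or TSA; circles are replicate 1, triangles replicate 2 and bars the mean of 2 arrays. The ckh2 arrays lie at 913 to 1132 for AT1G58025 and at 259 to 698 for AT3G23060, above every other array.

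On the log2 scale, the difference of ckh2 minus wild type for AT1G58025 was 3.18 without kinetin, 2.89 at 25 ng/ml and 3.50 at 200 ng/ml. For AT3G23060 it was 2.40, 2.83 and 3.32 at the same doses. Both replicate numbers gave each of these differences the same sign, with values from 2.38 to 3.99 for AT1G58025 and from 2.29 to 3.37 for AT3G23060. These sizes chose the genes, so nothing further is read from them.

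The smallest of the 3 differences places AT1G58025 at rank 1 and AT3G23060 at rank 6 of the 15469 tested probe sets. The rule has no numeric threshold. The named genes next to AT3G23060 in that order were AT4G30170 above it, with a smallest difference of 2.55, and AT1G72900 below it, with 2.25. Ranks 2, 3 and 4 belong to probe sets that the table leaves unnamed. All 6 ckh2 arrays exceeded all other 14 arrays for both genes, as they did for 0.297% of tested probe sets (46).

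**Figure D2:**
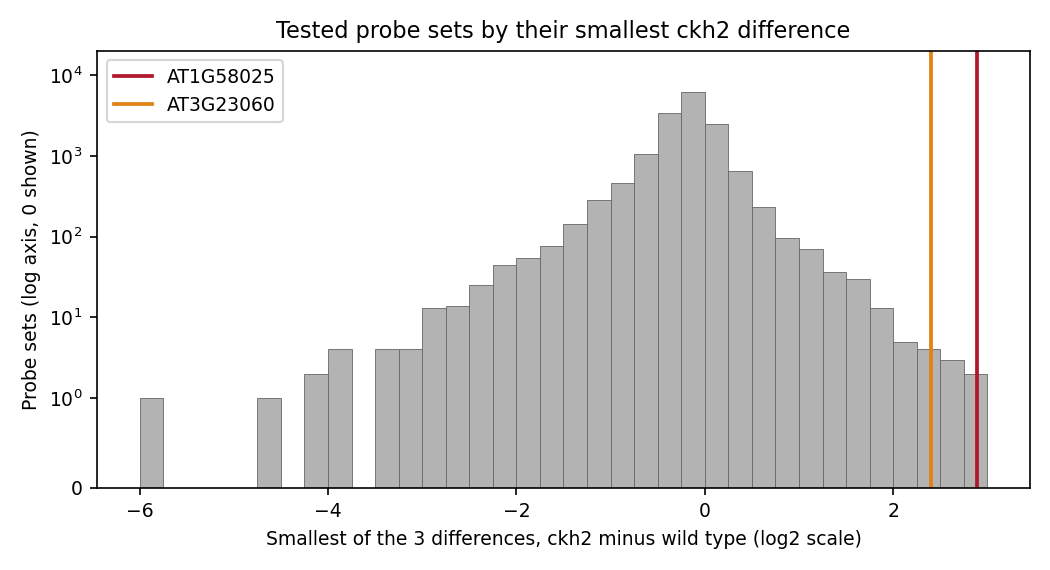
Number of tested probe sets (log axis, with 0 shown) by the smallest of the 3 differences of ckh2 minus wild type over kinetin levels, on the log2 scale. The lines mark AT1G58025 at 2.89 and AT3G23060 at 2.40, in the upper tail; the genes were chosen for this measure.

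The gap to the remaining arrays differed between the genes. For AT1G58025 the lowest ckh2 array was 5.96 times the highest array outside ckh2, which was a wild type array at 25 ng/ml. For AT3G23060 the lowest ckh2 array was 1.78 times the highest array outside ckh2, which was a TSA array. In the order of group means, neighbouring ckh2 groups of AT1G58025 overlapped, and a step of 2.89 separated them from the next group. Its ckh2 arrays at 25 ng/ml kinetin lay below both arrays without kinetin, as for 11.1% of probe sets. The other 7 groups of AT1G58025 each overlapped their neighbour in that order. For AT3G23060, neighbouring groups were separate from ckh2 at 200 ng/ml down through ckh2 at 25 ng/ml, ckh2 without kinetin and wild type on TSA. The remaining 6 groups of AT3G23060, those of ckh1 and of the wild type kinetin series, each overlapped their neighbour in the order.

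Kinetin at 200 ng/ml raised AT3G23060 in ckh2 by 1.14 ± 0.24 on the log2 scale (SE), a fold of 2.20 (adjusted p = 0.00374, limma with Benjamini-Hochberg adjustment over all tested probe sets). The change was 1.2 within replicate number 1 and 1.08 within replicate number 2. Both sides of this comparison are ckh2 groups whose high signals chose the gene, so its test is not independent of the choice. Of all tested probe sets, 4.05% were called higher and 4.23% lower in this comparison, and 4.69% had ckh2 arrays that were higher at each dose with no overlap. The call was lost without replicate 2 of ckh2 without kinetin (adjusted p = 0.0524) or replicate 1 of ckh2 at 200 ng/ml (adjusted p = 0.0690). At 25 ng/ml the difference for AT3G23060 in ckh2 was 0.57 ± 0.24 and did not pass (adjusted p = 1.00, limma), in a comparison where 0.0905% of probe sets were called.

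Markers of callus and lateral root founder cells moved in the opposite direction in the same arrays. In ckh2 at 200 ng/ml kinetin against none, PUCHI had -2.15 ± 0.24 (adjusted p = 5.3e-06, limma), LBD16 -1.66 ± 0.34 (adjusted p = 0.00266) and LBD29 -1.43 ± 0.44 (adjusted p = 0.0488). RCA, the Rubisco activase gene of green tissue, had 0.95 ± 0.34 (adjusted p = 0.0979). The part of such shifts in the rise of AT3G23060 was not tested. These are bulk samples, so a larger share of cells that express a gene and more RNA per cell cannot be told apart.

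In the other genotypes kinetin gave AT3G23060 values with the same sign that did not pass limma's test. In ckh1 the differences were 0.26 ± 0.24 at 25 ng/ml and 0.38 ± 0.24 at 200 ng/ml, with adjusted p of 0.996 and 0.399, where 1.17% and 5.28% of probe sets were called higher. The ckh1 arrays with kinetin nevertheless all lay above both ckh1 arrays without it, as for 12.7% of probe sets. In the wild type they were 0.13 ± 0.24 and 0.21 ± 0.24, with adjusted p of 1.00 and 0.967. The 95% intervals reached 0.89 in ckh1 and 0.72 in the wild type at 200 ng/ml, so rises of up to that size remain within the error of these arrays. After quantile normalization the difference in ckh1 at 200 ng/ml was 0.54 and passed (adjusted p = 0.0261).

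In value, the response of AT3G23060 in ckh2 minus that in wild type was 0.93 at 200 ng/ml (0.77 and 1.08 within the replicate numbers) and 0.44 at 25 ng/ml (0.74 and 0.14). Neither passed limma's test (0.93 ± 0.34, adjusted p = 0.629, and 0.44 ± 0.34), in comparisons with 0.362% and 0% of probe sets called. These are differences between the ckh2 minus wild type values that chose the gene, so the test is not independent of the choice. Whether kinetin acted more strongly in ckh2 is therefore not settled by a test here.

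Kinetin did not give AT1G58025 a call in ckh2 at either dose. The differences were -0.14 ± 0.40 at 25 ng/ml and -0.06 ± 0.40 at 200 ng/ml (adjusted p of 1.00 and 0.972, limma). The 95% intervals ran from -0.97 to 0.69 and from -0.90 to 0.77, which leaves room for changes of either sign. In the wild type the differences were 0.15 ± 0.40 and -0.38 ± 0.40 (adjusted p of 1.00 and 0.954), and at 200 ng/ml the replicate numbers differed in sign (-1.28 and 0.53). Calls in these wild type comparisons made up 0% of probe sets at 25 ng/ml, with 243 at an unadjusted p below 0.05, and 3.06% at 200 ng/ml. The response in ckh2 minus that in wild type was -0.29 ± 0.56 at 25 ng/ml and 0.31 ± 0.56 at 200 ng/ml. Neither passed limma's test.

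**Figure D3:**
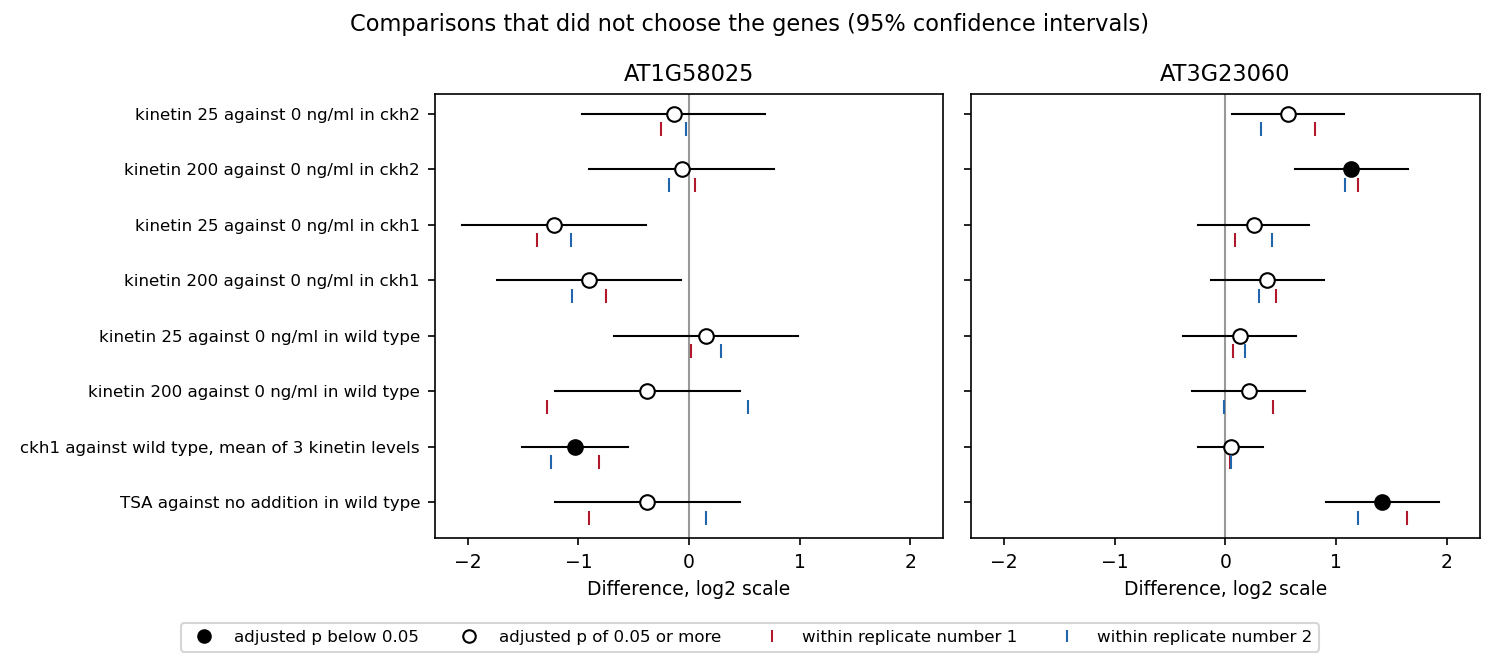
Differences on the log2 scale (points) with 95% confidence intervals that are not adjusted for the number of comparisons, for AT1G58025 and AT3G23060. The comparisons are those of kinetin within each genotype, ckh1 against wild type and TSA, which share arrays with the choice of the genes. Filled points passed an adjusted p of 0.05, and ticks give the value within each replicate number. AT3G23060 passed for kinetin at 200 ng/ml in ckh2 (1.14) and for TSA (1.42), and AT1G58025 passed for ckh1 against wild type (-1.03).

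AT1G58025 was lower in ckh1 than in the wild type. Its ckh1 signals were 96.3 and 42.3 without kinetin, 20.4 and 5.83 at 25 ng/ml, and 46.2 and 6.05 at 200 ng/ml. Over the 3 levels the ckh1 mean was 36.2 ± 34.2, against 95.9 ± 46.4 in the wild type (SD, n = 6 each). The difference was -1.03 ± 0.23 (adjusted p = 0.00464, limma), and 7.21% of probe sets were called lower among the 9.96% called in this comparison. Of the calls, 27.6% were higher, against 47.6% after quantile normalization and 43.4% after rescaling the arrays to a common trimmed mean. It was -0.81 within replicate number 1 and -1.25 within replicate number 2.

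The ckh1 and wild type ranges for AT1G58025 overlapped over all levels, and among the single levels the arrays were apart at 25 ng/ml, as they were in that direction for 14.6% of probe sets. The wild type arrays here are also those against which ckh2 was judged high. With a pseudocount of 2.739 in place of 27.39 the difference was -1.74 (adjusted p = 0.00325, limma). Of the 6 ckh1 signals, those of 20.4, 5.83 and 6.05 lay below the larger pseudocount. Within ckh1, kinetin gave AT1G58025 differences of -1.22 ± 0.40 at 25 ng/ml and -0.90 ± 0.40 at 200 ng/ml. Neither passed (adjusted p of 0.151 and 0.177, limma), in comparisons with 0.763% and 5.71% of probe sets called lower. With the smaller pseudocount they were -2.25 and -1.69 (adjusted p of 0.0833 and 0.103). Both ckh1 arrays at 25 ng/ml lay below both without kinetin, as for 15.3% of probe sets.

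Founder cell markers also fell in ckh1 against wild type. LBD29, a LOB domain factor of lateral root and callus formation, had -1.79 ± 0.25 (adjusted p = 6.54e-05, limma), with means of 147 ± 40.6 in ckh1 and 595 ± 204 in the wild type (SD, n = 6 each). PUCHI had -1.16 ± 0.14 (adjusted p = 1.18e-05) and LBD16 -0.59 ± 0.20 (adjusted p = 0.0645). Their part in the lower AT1G58025 signal was not tested.

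For AT3G23060 a difference between ckh1 and wild type was not detectable at its low signals there. Its ckh1 signals were 29.0 and 26.3 without kinetin, 32.5 and 44.7 at 25 ng/ml, and 50.4 and 38.6 at 200 ng/ml. The ckh1 mean was 36.9 ± 9.38 and the wild type mean 34.7 ± 7.33 (SD, n = 6 each). The difference was 0.05 ± 0.14 (adjusted p = 0.957, limma), with a 95% interval from -0.25 to 0.34. All 12 of these arrays lay under the filter signal of 66.5, and the gene was tested because it passed in ckh2 and on TSA. Set against ckh1 rather than wild type, ckh2 was higher by 4.22 for AT1G58025 and by 2.80 for AT3G23060 over the 3 levels, again as a description.

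TSA raised AT3G23060 in the wild type. The signals were 146 and 108 on TSA, against 28.2 and 31.3 without addition. The difference was 1.42 ± 0.24 (adjusted p = 0.000541, limma), with 1.64 within replicate number 1 and 1.2 within replicate number 2. It equals a fold of 2.68 in signal plus pseudocount, which understates the change in signal. The mean signals themselves were 127 on TSA and 29.7 without addition. With the smaller pseudocount the difference was 1.98. AT3G23060 passed the signal filter in the TSA group and the ckh2 groups, and in no other. Both TSA arrays also lay above all 6 wild type arrays of the kinetin series, as for 12.5% of probe sets, and 5.84% of probe sets were called higher on TSA and 5.13% lower. The call held under quantile normalization, rescaling, no filter, the smaller pseudocount and with each TSA or untreated array left out (adjusted p from 2.07e-05 to 0.0176). Of the founder markers, LBD16 rose on TSA (1.12 ± 0.34, adjusted p = 0.0394, limma), PUCHI had 0.39 ± 0.24 (adjusted p = 0.367) and LBD29 -0.73 ± 0.44 (adjusted p = 0.341). Their part in the TSA result was not tested.

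For AT1G58025 the TSA signals were 67.7 and 66.1, inside the range of the untreated wild type arrays (151 and 56.7). The difference was -0.38 ± 0.40 (adjusted p = 0.633, limma), with -0.90 within replicate number 1 and 0.15 within replicate number 2. On TSA the wild type signal of AT3G23060 averaged 127 ± 26.9, against 273 ± 19.7 in ckh2 without kinetin (SD, n = 2 each), with no overlap. The TSA and the ckh2 comparisons share the untreated wild type arrays.

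Markers of the cell types that the segments could hold also differed between ckh2 and wild type. Of 5 callus and lateral root founder genes, LBD16, LBD29 and PUCHI had probe sets named in the table and were tested. PUCHI, an AP2 family factor of lateral root formation, averaged 206 ± 126 in ckh2, 207 ± 144 in ckh1 and 413 ± 122 in the wild type (SD, n = 6 each). It fell in ckh2 (-1.14 ± 0.14, adjusted p = 1.26e-05, limma), as did LBD29 (-1.26 ± 0.25, adjusted p = 0.00186). LBD16 had -0.30 ± 0.20 (adjusted p = 0.515). Of all probe sets, 5.09% were called lower and 4.89% higher in ckh2, over 3 kinetin levels.

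The other marker lists had few named probe sets. RCA was the 1 of 8 green tissue genes that could be tested, and none of 6 xylem or 5 root meristem genes could. RCA averaged 882 ± 315 in ckh2, 669 ± 287 in ckh1 and 506 ± 219 in the wild type, and rose in ckh2 (0.78 ± 0.19, adjusted p = 0.0111, limma). On TSA it averaged 820 ± 249 and rose by 1.11 ± 0.34 (adjusted p = 0.0375). The part that such shifts have in the values of AT3G23060 and AT1G58025 was not tested.

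Of listed genes that act at chromatin or that PICKLE is known to restrain, few could be tested by name. Of 13 SWI/SNF remodeller subunits 6 were tested, and none passed in ckh2 against wild type, where their median difference was -0.07 and that of all probe sets -0.02. TSA gave none a call either (median -0.29, all probe sets -0.05). Calls over all probe sets made up 9.98% in ckh2 against wild type and 11.0% on TSA. With kinetin at 200 ng/ml in ckh2 the median of the 6 was -0.63 and that of all probe sets -0.03. BSH, 1 of the 6, fell (-0.82 ± 0.25, adjusted p = 0.0477, limma), where 4.23% of probe sets were called lower. The others ranged from -0.75 for CHR23 (adjusted p = 0.0709) and SWP73B (adjusted p = 0.183) to -0.44 for SWP73A (adjusted p = 0.318). HDA15, the only tested entry of 15 histone deacetylase genes, had -0.17 ± 0.15 in ckh2 (adjusted p = 0.683) and -0.24 ± 0.26 on TSA (adjusted p = 0.638).

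BBM, an AP2 family factor of embryo development, was the only tested entry of 17 embryo and seed genes. It was lower in ckh2 than in wild type (-0.59 ± 0.18, adjusted p = 0.0436, limma), with means of 110 ± 89.1 in ckh2 and 149 ± 96.9 in wild type (SD, n = 6 each). It was also lower in ckh1 than in wild type (-0.72 ± 0.18, adjusted p = 0.0116), and fell with kinetin at 200 ng/ml in ckh2 (-2.84 ± 0.31, adjusted p = 4.17e-06). On TSA it fell by 3.00 ± 0.31 (adjusted p = 3.22e-06) to a mean signal of 1.46, far below the pseudocount.

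None of the 3 tested genes next to AT3G23060 was called in ckh2 against wild type by the main fit. Of all probe sets, 4.89% were called higher and 5.09% lower in that comparison. CFM3A, a CRM family gene, begins 57 bases beyond the end of AT3G23060 and had mean signals of 124 in ckh2 and 117 in the wild type. Its difference was 0.08 (adjusted p = 0.886, limma). AT3G23080 had 0.12 (adjusted p = 0.866) and AT3G23090, which the reference table also lists as WDL3, had -0.50 (adjusted p = 0.233). With the replicate number as a term in the limma model, AT3G23090 was called lower (adjusted p = 0.00684), as were 12.5% of all probe sets. CFM3A, AT3G23080 and AT3G23090 were the 3 tested genes among the 5 annotated on each side. None of the 10 annotated neighbours of AT1G58025 had a probe set named in the table.

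The named genes whose pattern over the 10 group means was most like that of each member were picked by Pearson correlation among 7249 eligible probe sets. For AT1G58025 they were AT2G15560 (r = 0.965), AT5G53150 (0.960), AT1G62510 (0.952), scpl35 (0.930), a serine carboxypeptidase-like gene, and AT3G50900 (0.927). The 10 points share arrays and include 3 ckh2 groups, and the members were chosen on ckh2 against the rest. AT2G15560 had mean signals of 257, 256 and 294 in ckh2 at 0, 25 and 200 ng/ml kinetin, and 20, 19.5 and 22.4 in ckh1. Its wild type means were 53.3, 57.7 and 31.3, each above the ckh1 mean at the same dose.

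AT1G62510 was dim in every group outside ckh2. Its means were 148 ± 97.9, 170 ± 83.0 and 100 ± 2.55 in ckh2 at 0, 25 and 200 ng/ml kinetin (SD, n = 2 each). In ckh1 they were 2.97, 3.04 and 3.11, and in the wild type 4.90, 2.84 and 4.90. The spread between the 2 ckh2 arrays was wide at 0 and 25 ng/ml, and no fold is given against signals this low.

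For AT3G23060 the most similar genes were CHLM (r = 0.972), which encodes the magnesium-protoporphyrin IX methyltransferase of chlorophyll synthesis, AT1G79720 (0.963), AT5G59540 (0.959), AT2G36970 (0.949) and AT1G01770 (0.946). AT5G59540 had mean signals of 398 ± 116, 539 ± 192 and 653 ± 142 in ckh2 at 0, 25 and 200 ng/ml kinetin (SD, n = 2 each). In wild type on TSA it had 410 ± 74.2. In the wild type kinetin series it had 104, 127 and 107. Its means ran upward with dose in ckh2, with a wide spread between arrays, and it was picked for likeness over these same groups. Its TSA mean was close to its ckh2 mean without kinetin, whereas that of AT3G23060 was lower (127 against 273). CHLM had 304, 319 and 430 in ckh2, 256 on TSA, and 184, 204 and 185 in the wild type kinetin series. Its differences from the wild type series were shallower than those of AT3G23060.

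**Figure D4:**
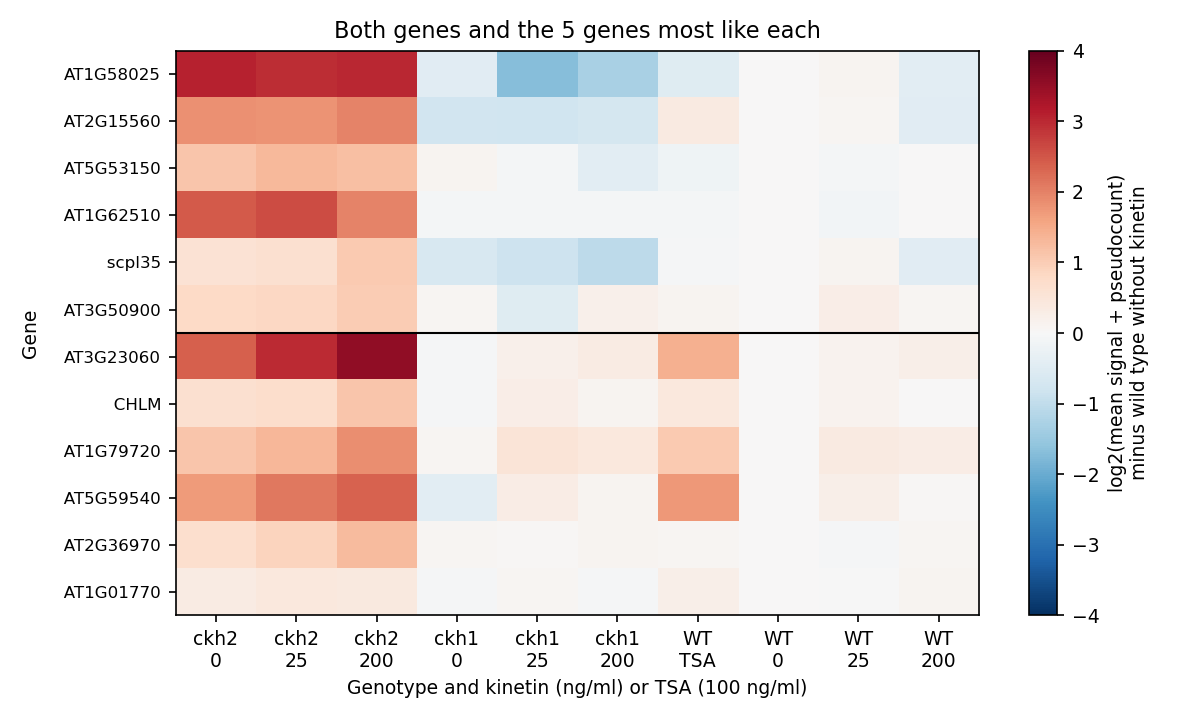
Mean signals of AT1G58025, AT3G23060 and the 5 named genes most like each, as log2(mean signal + 27.39) minus the value in wild type without kinetin, by genotype and kinetin dose in ng/ml or TSA; red is higher and blue lower. AT3G23060, AT1G79720 and AT5G59540 are red in ckh2 and on TSA, and AT1G58025 and AT2G15560 are red in ckh2 and blue in ckh1.

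The members themselves correlated with r = 0.889 over the 10 group means, and their lists of most similar genes held no gene in common. Among all tested probe sets AT3G23060 ranked 25 in likeness to AT1G58025, and AT1G58025 ranked 72 in likeness to AT3G23060. Both had been chosen for high values in ckh2. Their values parted in other comparisons: the kinetin rise in ckh2 and the TSA rise were called for AT3G23060, and the lower level in ckh1 was called for AT1G58025. Differences between the genes in these responses were not tested.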

How the data were processed

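The authors deposited MAS5 signal intensities per probe set on the linear scale, per the submitters' processing notes; neither the MAS5 version nor its scaling target is stated there (not given in the sources used here). Of 22810 probe sets, 64 controls were left out, and 15469 were tested, those whose highest of 10 group means exceeded a signal of 66.5 (6.553 as log2 with the constant below; percentile 40 of the values). AT1G58025 passed in 7 groups, 3 of ckh2 and all 4 of wild type; AT3G23060 passed in 4, those of ckh2 and TSA, so it entered only through groups where it was high. Values were taken as log2(signal + 27.39), the constant being 0.1 of the median trimmed mean, and all 20 arrays entered 1 model of 10 group means (limma 3.58.1, R 4.3.3, with lmFit and trended eBayes). Each comparison had its own Benjamini-Hochberg adjustment, with calls below 0.05. Alternatives were another normalization, filter and pseudocount, a replicate term and left-out arrays.

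The members, gene lists and comparisons were chosen with earlier results of these data known. Similar genes were the 5 with the highest correlation per member among tested probe sets of 1 gene with a group mean signal above 115. Neighbours were the 5 annotated genes on each side. Lists without a tested entry were not used, and AT1G72900 and AT4G30170 were named after their values were seen. A list of bromodomain genes was also left out of the results above. Of its 6 tested probe sets, with any member left out, none was called in ckh2 against wild type, where 9.98% of all probe sets were. On TSA 1 was called lower, as were 5.13% of all probe sets. With the replicate number as a term in the model, 1 was called lower in ckh2 and 2 on TSA, beside 12.5% and 19.4% of all probe sets. Of 22746 probe sets, 13513 map to 1 gene, 503 to several and 8730 to none in the array's table, and those of CKH1 and CKH2 are not named there. The fit was tested on simulated data for kinetin at 200 ng/ml against none in ckh2. It recovered 13 of 100 probe sets changed by 1 on the log2 scale and 100 of 100 changed by 2. With the replicate number as a block, 91 and 100 were recovered. The main fit can therefore leave a change of 1 uncalled.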

Additional observations from a re-analysis of the deposited data

How the results depend on the processing

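The alternatives were quantile normalization, arrays rescaled to a common trimmed mean, no filter, a pseudocount of 2.739, the replicate number as a block, and each array left out in turn with and without the block. Of 518 values for the members, 503 kept their direction (where called), their side of the threshold and, where not tested, their size within 1 SD. Dim wild type and ckh1 signals make sizes depend on the pseudocount: with 2.739, ckh2 minus wild type for AT3G23060 was 3.09, 3.48 and 3.95 at 0, 25 and 200 ng/ml and 3.51 over all levels, and ckh2 minus ckh1 was 3.44 for AT3G23060 and 5.27 for AT1G58025. The uncalled kinetin differences of AT3G23060 at 25 and 200 ng/ml were then 0.43 and 0.62 in ckh1 and 0.21 and 0.35 in wild type. With 1 array left out, a group of 1 is assumed to vary like the others. Then the kinetin rise of AT3G23060 in ckh2 ran from 1.01 to 1.27 (adjusted p up to 0.0690 without the block and 0.0107 with it), AT1G58025 in ckh1 at 200 ng/ml from -1.47 to -0.34 (passing at -1.33, adjusted p = 0.0315), ckh2 minus wild type for AT3G23060 without kinetin from 2.27 to 2.52, and for AT1G58025 at 200 ng/ml from 2.88 to 4.11. Quantile normalization gave AT3G23060 a call in ckh1 at 200 ng/ml (0.54). The causes were not tested.

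The labels give no shared source for arrays with the same replicate number, so the numbers were not taken as a pairing. Deviations from group means nevertheless correlated over 0.1 in 27 of 45 group pairs (median 0.204, lowest -0.133, highest 0.64). For each of the 10 groups the mean of these correlations with the other groups was positive, the lowest being 0.00957. With 2 arrays per group, the deviations of replicate 2 mirror those of replicate 1 and add no further evidence. The main fit leaves the scaling difference between replicate numbers in its error. The median SE of a difference between 2 groups was 0.289, against 0.169 with the block. With the replicate block AT1G58025 passed for kinetin at 25 ng/ml in ckh1 (-1.22, adjusted p = 0.0402, where 3.98% of probe sets were called lower), and the block changed no other call of the members. Among other named genes it added calls with kinetin at 200 ng/ml in ckh2 for RCA (adjusted p = 0.00401, limma), CHR23, SWP73B, SWI3A and SWI3D. That made 5 of 6 SWI/SNF genes lower, where 13.2% of all probe sets were called lower with the block. On TSA it added CHR23 and SWP73B (0.00178 and 0.00551), where 19.4% were called lower. In ckh1 against wild type it added LBD16 (0.00155) and the SWI/SNF gene BSH (0.0393), where 13.6% were called lower. In ckh2 against wild type it added AT3G23090 (0.00684), where 12.5% were called lower. It raised the number of called probe sets from 1280 to 3847 for kinetin at 200 ng/ml in ckh2, from 1696 to 5487 for TSA and from 1540 to 3898 for ckh1 against wild type; rescaling gave 3221, 4654 and 3312, and quantile normalization 3104, 4628 and 3375. For kinetin at 25 ng/ml in the wild type limma called 0 probe sets, and 10 with the block.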
